A study of Mus musculus with 2 samples.

Results

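The circadian clock genes described here are 10 genes, namely Clock, Arntl, Npas2, Per1, Per2, Per3, Cry1, Cry2, Dbp and Tef. They were matched by symbol among the 43280 gene symbols of the deposited read counts, and all 10 were found. RNA-seq of poly(A) RNA was performed on an Ion Proton system with 1 library of mature hepatocytes (MHs) and 1 library of small hepatocytes (SHs), which the labels describe as intrinsic hepatocyte progenitors. Both came from livers of healthy C57BL6 mice, which were 20 weeks old by the labels and younger by the methods, and the labels say that both cell types were taken from the same mice. The methods give 3 mice for the isolation, and whether the RNA of several animals was pooled in a library is not stated. Livers were digested by collagenase perfusion. MHs were the cells that sedimented first, were freed of dead cells with Percoll and were not sorted. SHs were the cells that stayed in the supernatant, went through a further spin and Percoll step, and were sorted by FACS for ICAM-1 and against CD31, CD45 and EpCAM. The methods state a constant light/dark cycle. The hour of perfusion and the time between perfusion and RNA extraction are not given in the sources used here.

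The circadian clock is a feedback loop of transcription that runs in nearly every cell. CLOCK, or its paralog NPAS2, pairs with BMAL1, the product of Arntl, and the pair activates the Per and Cry genes and the output genes Dbp and Tef through E-box sequences. PER and CRY proteins then accumulate and repress CLOCK and BMAL1, while REV-ERB and ROR nuclear receptors set the rhythm of Arntl. In the mouse liver these transcripts rise and fall over each day with fixed phases, Arntl around the end of the night and Dbp and the Per genes from the day into the evening, and the outputs drive daily rhythms of bile acid, lipid and drug metabolism.

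The sequencing depth was 16979136 counted reads for MHs and 42356444 for SHs. Levels are given as counts divided by the total of the library, per 1000000 (RPM). The difference between libraries is given as the log2 ratio of SHs over MHs with 0.5 reads added to each count. Its 95% Clopper-Pearson interval covers counting error only, since there was no replicate and the reads carried no molecular identifiers. No test between conditions was possible, and the values compare these 2 libraries. Markers of other cells differed between them. The summed level of 7 endothelial genes was 66.2 RPM for MHs and 3.92 RPM for SHs, that of 7 macrophage genes was 18.4 and 0.567, and that of 7 stellate cell genes was 19.4 and 2.17. Each member of these lists with at least 10 reads was lower in SHs, and the endothelial gene Lyve1 had 14 MH reads and 0 SH reads. A summed 13.9 RPM for MHs and 14.1 RPM for SHs came from 5 cholangiocyte genes, of which Krt19 and Krt7 had 1 read in each library and Epcam had 6 MH reads and 1 SH read. Nearly all of this sum was Sox9, whose log2 ratio was 0.50 (0.16 to 0.85), and Spp1, whose log2 ratio was -0.33 (-0.63 to -0.02), an interval that included 0 under 2 of 4 other scalings. The 6 hepatocyte genes Alb, Ttr, Apoa1, Hnf4a, Cps1 and Tdo2 had log2 ratios between -0.19 and 0.13. All 10 genes of the central-vein side of the lobule (ZONE3) were lower in SHs. Their sum was 3225 RPM for MHs and 904 RPM for SHs. All 9 genes of the portal side (ZONE1) were higher, with 8999 and 11783 RPM. Each had an interval off 0, beside 15.5% under and 16.8% above among all genes with at least 10 reads. The paper had already reported Glul, Axin2, Lgr5, Cyp1a2 and Cyp2e1 as lower and Cdh1 as higher in SHs. These counts were therefore partly known beforehand. The part of these markers in the differences of the clock genes was not tested, and a smaller number of cells of one type cannot be told apart from less RNA in each cell.

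The clock genes together had almost the same level in both libraries. Their summed reads were 3767 in MHs and 9425 in SHs, or 221.9 and 222.5 RPM, which gave a log2 ratio of 0.00 (95% interval -0.05 to 0.06). Clock and Tef, with 3085 and 3377 reads over both libraries, weighed most in it. Within this sum, Per2, Cry1 and Cry2 were higher in SHs, Per1 and Per3 were lower, and the intervals of Clock, Arntl, Npas2, Dbp and Tef included 0. An interval wholly above 0 was thus seen for 3 of the 10 genes and one wholly under 0 for 2. Among all 15521 genes with at least 10 reads, these shares were 16.8% and 15.5%. Among the 7805 genes with as many reads as the clock genes, from 194 to 3377 over both libraries, they were 19.0% and 13.4%. With 10 genes, 3 above and 2 under are close to these background shares. The median log2 ratio of the 10 genes was -0.09, beside 0.02 for all genes with at least 10 reads and 0.03 for those with as many reads as the clock genes. Only Per3 differed by 1.5-fold or more with an interval off 0, as did 4.09% of the genes with as many reads. Its log2 ratio was -0.56 without the 10 most-read genes and -0.57 over protein-coding genes, both short of 1.5-fold. At 2-fold, 0 of the 10 genes passed, beside 1.11%.

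**Figure D1:**
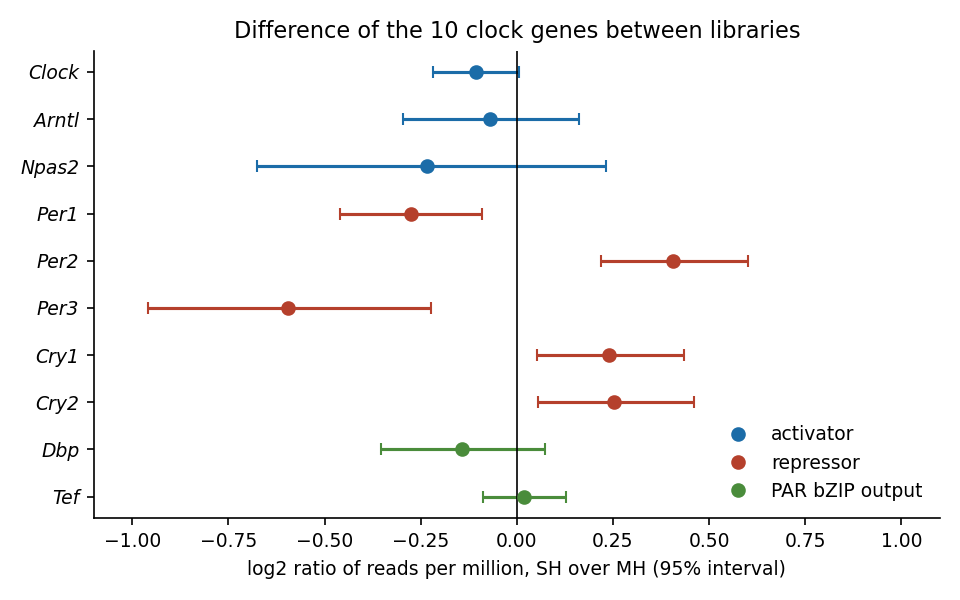
Log2 ratio of RPM in SHs over MHs for each clock gene, with the 95% interval of counting error as a bar and colours for activators, repressors and output factors. Per2, Cry1 and Cry2 lie to the right of 0, Per1 and Per3 to the left, and the bars of the other 5 genes cross 0.

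The activators form the positive limb. Clock (chromosome 5, 76209868 to 76304792 of mm10, minus strand), which encodes the DNA-binding partner of BMAL1, had 930 MH reads and 2155 SH reads. These were 54.8 RPM for MHs and 50.9 RPM for SHs, which gave a log2 ratio of -0.11 (-0.22 to 0.01). Arntl (chromosome 7, 113207465 to 113314126, plus strand), which encodes BMAL1, had 225 and 535 reads, or 13.3 and 12.6 RPM. Its log2 ratio was -0.07 (-0.30 to 0.16), so a difference between the libraries was not detectable at this depth. Npas2 (chromosome 1, 39193731 to 39363236, plus strand), which can stand in for Clock, had the fewest reads of the 10 genes, 62 in MHs and 132 in SHs. Its levels were 3.65 and 3.12 RPM, and the interval of its log2 ratio of -0.23 ran from -0.67 to 0.23. All 3 point values were slightly under 0, each within its counting error. The summed reads of the activators gave a log2 ratio of -0.11 with an interval of -0.20 to -0.01 that just left out 0, and under each of 4 other scalings this interval included 0.

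The repressors form the negative limb. Of these 5 genes, 3 had an interval above 0 and 2 had one under 0. Among the genes with as many reads, these shares were 19.0% and 13.4%. The activators and output factors were only 3 and 2 genes, and their intervals included 0. With so few genes in each role, the counts describe these genes and not a role. Outside the 10, Hlf, of the same family as Dbp and Tef, also had an interval under 0 (given below). Per1 (chromosome 11, 69095217 to 69109960, plus strand) encodes a PERIOD protein and is also known as a gene that responds quickly to stress hormones and cAMP. It had 359 MH reads and 740 SH reads, which was 21.1 and 17.5 RPM and a log2 ratio of -0.28 (-0.46 to -0.09). Per2 (chromosome 1, 91415982 to 91459324, minus strand) went the other way, with 295 MH reads and 977 SH reads. Its level was 17.4 RPM for MHs and 23.1 RPM for SHs, and its log2 ratio of 0.41 (0.22 to 0.60) was the highest of the 10. Per3 (chromosome 4, 151003652 to 151044665, minus strand), the PERIOD gene with the least part in the core loop, had 101 and 167 reads. At 5.95 RPM for MHs and 3.94 RPM for SHs it had the lowest log2 ratio of the 10, -0.60, and a wide interval of -0.96 to -0.22. The 3 Per genes therefore did not share a direction.

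Both cryptochrome genes were higher in SHs by similar amounts. Cry1 (chromosome 10, 85131700 to 85185064, minus strand), which encodes the main repressor of CLOCK and BMAL1 late in the night, had 305 MH reads and 900 SH reads. Its levels of 18.0 and 21.2 RPM gave a log2 ratio of 0.24 (0.05 to 0.43). Cry2 (chromosome 2, 92403646 to 92434043, minus strand), its paralog, had 270 and 804 reads, or 15.9 and 19.0 RPM. Its log2 ratio was 0.25 (0.05 to 0.46). The lower bounds of both intervals lay close to 0, and with 99% intervals both included 0, whereas those of Per1, Per2 and Per3 did not. As a sum, the 5 repressors had 1330 MH reads and 3588 SH reads, which gave a log2 ratio of 0.11 (0.02 to 0.20).

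Promoter sequences from RefSeq (build GRCm38.p6, which is mm10) were searched for the elements through which the clock acts, over 250 bases before to 50 bases after the transcription start. These were the E-box (CACGTG), a variant of it (CACGTT), the D-box of DBP, TEF and their repressor NFIL3 (TTATGTAA or TTACGTAA), and the core of the element shared by ROR and REV-ERB (TAGGTCA or TGGGTCA), all on both strands. A promoter was listed for 9 of the 10 genes, all but Per2. The repressor genes with an interval off 0 that have a match are shown, with the matches in capitals and no overlap between them.
Per1, chr11:69098763-69098808, plus strand: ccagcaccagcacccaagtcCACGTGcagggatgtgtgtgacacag
Per3, chr4:151044796-151044890, minus strand: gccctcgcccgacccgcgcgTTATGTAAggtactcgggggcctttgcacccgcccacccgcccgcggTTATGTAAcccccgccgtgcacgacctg
Cry1, chr10:85185089-85185153, minus strand: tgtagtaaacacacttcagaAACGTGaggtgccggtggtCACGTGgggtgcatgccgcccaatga
Cry2, chr2:92434210-92434255, minus strand: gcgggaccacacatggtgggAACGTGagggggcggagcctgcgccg

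The E-box of Per1 begins 166 bases before the start site of one of its 2 listed promoters, and the D-boxes of Per3 begin 205 and 158 bases before its start site. Cry1 holds the E-box 60 bases and the variant 79 bases before the start, and Cry2 holds the variant alone, 166 bases before it. In the capitals of Cry1 and Cry2 the variant reads AACGTG, its complement on the other strand. Tef had an E-box in both of its listed promoters, and Arntl had the ROR and REV-ERB core 31 bases after the start in 1 of its listed promoters. Of all 32851 listed promoters of this length, 7.15% held the E-box, 4.68% the variant, 1.06% the D-box and 6.45% the ROR and REV-ERB core. These are shares of promoters. The 9 clock genes had 14 listed promoters, so a gene with several of them had more chances of a match. The genes with an E-box, Per1, Cry1 and Tef, were lower in SHs, higher in SHs and near 0 in turn. A match of letters is a description of the sequence and does not show that a factor bound there.

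The output factors Dbp and Tef belong to the PAR bZIP family, which binds D-boxes in genes of detoxification. Dbp (chromosome 7, 45705088 to 45710203, plus strand) is among the clock genes of the liver with the widest daily swing. It had 263 MH reads and 595 SH reads, that is 15.5 and 14.05 RPM, which gave a log2 ratio of -0.14 (-0.35 to 0.07). In the GENCODE M21 annotation, 539 exon bases of Dbp are shared with Sphk2 on the opposite strand, which had 770 and 2230 reads, and it is not stated whether the counting used strand. Tef (chromosome 15, 81802421 to 81826863, plus strand), whose swing is smaller, had 957 MH reads and 2420 SH reads. Its levels of 56.4 and 57.1 RPM gave a log2 ratio of 0.02 (-0.09 to 0.13), the value nearest to 0 among the 10 genes. Neither output gene differed between the libraries beyond its counting error.

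Levels were compared between genes only per exon length, as RPM divided by the kilobases of the union of annotated exons (RPKM). In MHs, Tef had the highest level, 7.16 RPKM, followed by Cry1 with 5.38 and Dbp with 5.18, whose intervals overlapped. Clock and Per1 were next with 3.99 and 3.75 RPKM, also with overlapping intervals. Per2 followed with 2.97 RPKM and Cry2 with 2.52, and their intervals overlapped too. Arntl had 1.76 RPKM, and Npas2 and Per3 were lowest with 0.762 and 0.619, with overlapping intervals. In SHs the order was the same except that Per2, with 3.94 RPKM, moved ahead of Clock, with 3.71, and Per1, with 3.10, and the intervals of Per2 and Clock overlapped, as did those of Per1 and Cry2. In SHs the intervals of Cry1 and Dbp lay apart, as did those of Npas2 and Per3. The order depended on the annotated length. With the exons of GENCODE's basic transcripts, chosen after the data were seen, 14 of the 20 ranks changed, Dbp was second in both libraries, and Arntl moved from rank 8 to rank 5 in MHs and 6 in SHs. Tef was the highest under both lengths.

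**Figure D2:**
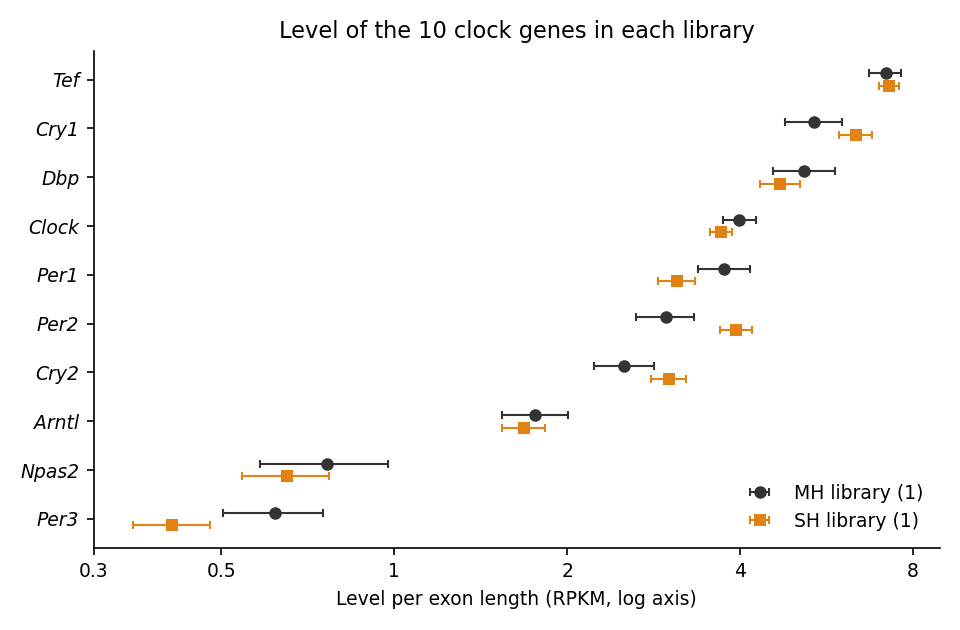
Level of each clock gene per exon length (RPKM, log axis) in the MH library (circles) and the SH library (squares), with 95% intervals of counting error. Tef is highest in both libraries, Npas2 and Per3 lie below 1 RPKM, and the intervals of the 2 libraries are apart for Per1, Per2 and Per3.

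A ratio of the reads of a gene pair inside a library does not depend on how the libraries are scaled, so such ratios were compared as well. For each read of Arntl there were 1.17 reads of Dbp in MHs and 1.11 in SHs. The log2 of the change was -0.07 (-0.39 to 0.24), so the balance between the positive limb and this output, whose peaks lie far apart in the day, did not differ beyond counting error. Each Arntl read came with 8.95 Nr1d1 reads in the MH library and 7.78 in the SH library, and the log2 change was -0.20 (-0.45 to 0.04). The number of Tef reads was 4.25 and 4.52, a change of 0.09 (-0.17 to 0.34). For Per2 the MH library had 1.31 and the SH library 1.83, with a log2 change of 0.48 (0.18 to 0.78), and for Per3 it was 0.449 and 0.312, a change of -0.52 (-0.96 to -0.08). These ratios share the reads of Arntl and are not independent of each other.

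Per1 and Per2 had the widest change of the 9 pairs. The library of MHs held 1.22 reads of Per1 for each read of Per2, and that of SHs 0.757, a log2 change of -0.68 (-0.95 to -0.42). Per1 thus had more reads than Per2 in MHs and fewer in SHs. The ratio of Per1 to Arntl had an interval that included 0, with 1.60 and 1.38 reads and a change of -0.21 (-0.50 to 0.09). The reads of Cry1 for each read of Cry2 were 1.13 in MHs and 1.12 in SHs, a change of -0.01 (-0.29 to 0.27). The reads of Npas2 for each read of Clock were 0.0667 and 0.0613, a change of -0.12 (-0.58 to 0.35).

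**Figure D3:**
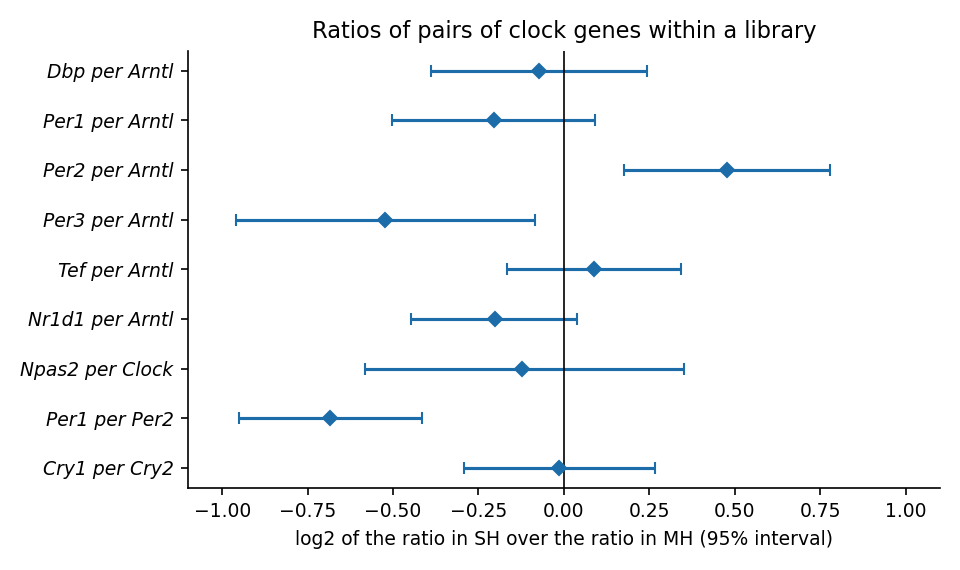
Log2 change, SH over MH, of the reads of one clock gene for each read of another in the same library, with 95% intervals of counting error. Per1 for each Per2 lies at -0.68 and Per2 for each Arntl at 0.48, whereas Dbp, Tef, Nr1d1 and Per1 for each Arntl have intervals across 0.

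A further 18 genes of the clock were listed with the members, and 17 of them had at least 10 reads. Of these 17, 4 had an interval above 0, 5 had one under 0 and 8 had one that included 0, and their median log2 ratio was -0.07. The background shares of 16.8% above and 15.5% under stand beside these counts, without a match for reads. Among the nuclear receptors of the loop, Nr1d1, which encodes the repressor REV-ERB alpha, had 2014 MH reads and 4163 SH reads. Its level was 118.6 RPM for MHs and 98.3 RPM for SHs, which gave a log2 ratio of -0.27 (-0.35 to -0.19). Its exons share 263 bases with Thra on the opposite strand, which had 129 and 426 reads. Nr1d2, its paralog, had 40.3 and 43.6 RPM and a log2 ratio of 0.11 (-0.01 to 0.24). The activating receptor gene Rora had a log2 ratio of 0.12 (0.02 to 0.22). Rorb had 0 MH reads and 2 SH reads, at or under the floor of 3 reads, which is 0.177 RPM for MHs and 0.0708 RPM for SHs.

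The third PAR bZIP gene, Hlf, had an interval under 0. It had 351 MH reads and 732 SH reads, or 20.7 and 17.3 RPM, which gave a log2 ratio of -0.26 (-0.44 to -0.07). Hlf and Dbp had overlapping intervals and were not tested against each other. Nfil3, which represses at the D-box, was higher, with 534 and 1597 reads, 31.5 and 37.7 RPM, and a log2 ratio of 0.26 (0.12 to 0.41). Ciart, a repressor of CLOCK and BMAL1, had only 33 and 62 reads and a log2 ratio of -0.42 (-1.04 to 0.25). Cipc, another inhibitor of CLOCK, had a log2 ratio of -0.23 (-0.39 to -0.06).

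The related repressor genes Bhlhe40 and Bhlhe41, which compete for E-boxes, had different levels and ratios. Bhlhe40 had 228 RPM for MHs and 237 RPM for SHs, which gave a log2 ratio of 0.06 (0.00 to 0.11). Bhlhe41 had 87 MH reads and 137 SH reads, 5.12 and 3.23 RPM, which gave a log2 ratio of -0.67 (-1.06 to -0.26). Among the genes that set the stability of PER and CRY, the kinase gene Csnk1d had a log2 ratio of 0.22 (0.09 to 0.36) from 599 and 1743 reads, and Csnk1e one of -0.67 (-1.19 to -0.13) from 51 and 80 reads. The intervals of Fbxl21, Btrc, Fbxw11 and Gsk3b included 0. With totals that left out the 10 most-read genes, or with protein-coding genes alone, the interval of Nr1d2 lay above 0. Arntl2 had 2 and 14 reads and Timeless 9 and 44, with intervals from under 0 to above 2.

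**Figure D4:**
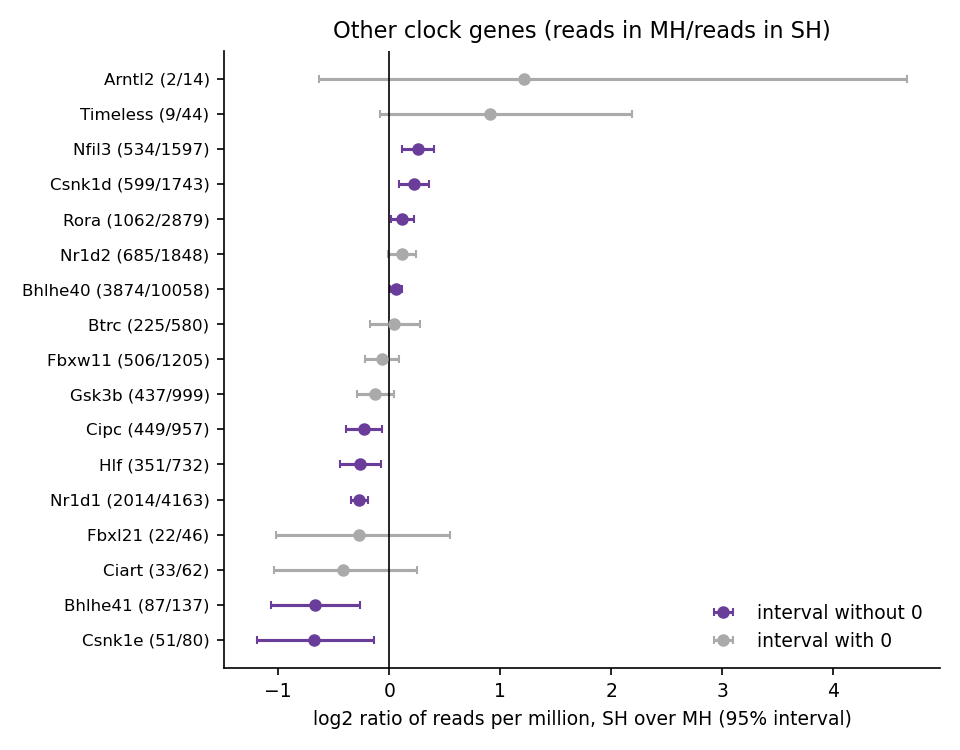
Log2 ratio of RPM in SHs over MHs for the 17 other clock genes with at least 10 reads, sorted by value, with 95% intervals of counting error and the reads in MHs and SHs beside each name. The 9 genes with an interval off 0 lie between -0.67 and 0.26, and the widest bars belong to genes with few reads.

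Clock genes were also grouped by the time of day at which their transcripts are known to peak in the mouse liver. By the labels both cell types came from the same mice, and by the methods from the same digested tissue. The hour of perfusion is not given, and the share of each mouse in a library is not stated. SHs went through further steps after perfusion. The part of the hour or of this handling in the ratios was not tested. The group that peaks from day to dusk held 11 genes, Per1, Per2, Per3, Dbp, Tef, Hlf, Nr1d1, Nr1d2, Ciart, Usp2 and Wee1. Of these, 8 had a log2 ratio under 0, 4 with an interval under 0 (Per1, Per3, Hlf and Nr1d1), and Per2 had an interval above 0. Among all genes with at least 10 reads, not matched for reads, 15.5% had an interval under 0 and 16.8% one above it. The median of the group was -0.26, beside 0.02 for all these genes. The group that peaks from night to dawn held 5 genes, of which Cry1 and Nfil3 had an interval above 0 and Arntl, Clock and Npas2 had a ratio under 0 with an interval that included 0. Its median was -0.07. The ratios of the groups overlapped, from -0.60 to 0.41 for day to dusk and from -0.23 to 0.26 for night to dawn. In neither group did all genes lie on one side of 0.

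**Figure D5:**
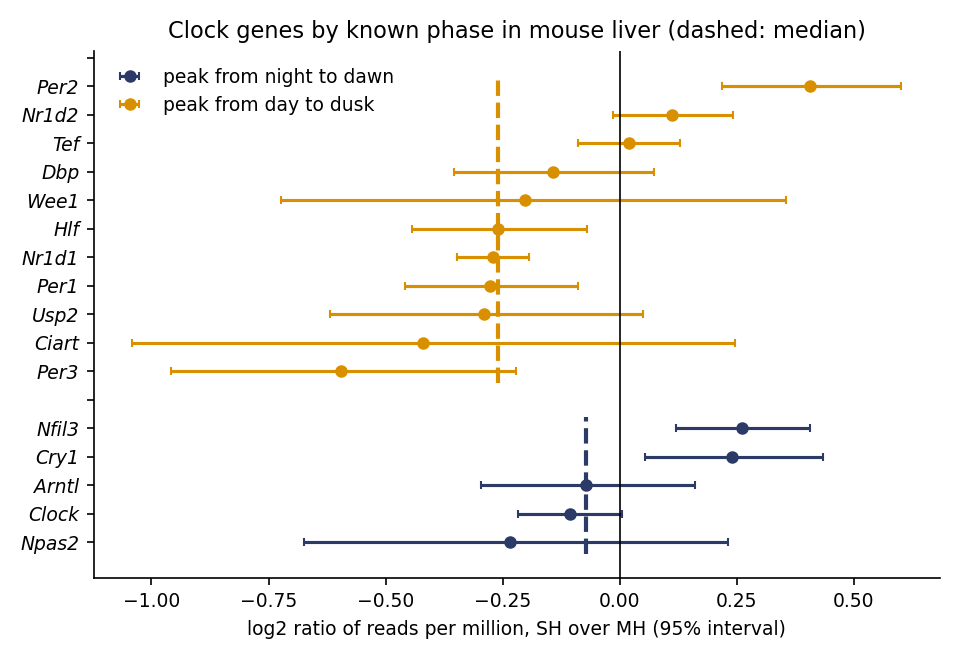
Log2 ratio of RPM in SHs over MHs for 11 genes with a known peak from day to dusk and 5 with a peak from night to dawn, with 95% intervals of counting error and a dashed line at each group's median, -0.26 and -0.07. The values of the groups overlap, and Per2 lies apart from the other Per genes.

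Of 14 liver genes known to follow the clock, 1 had an interval above 0, 4 had one under 0 and 9 had one that included 0. The background shares, not matched for reads, were 16.8% above and 15.5% under. The median log2 ratio of the 14 genes was -0.10. The lowest was Cyp7a1, the rate-limiting enzyme of bile acid synthesis. It had 26.7 RPM for MHs and 6.99 RPM for SHs, which gave a log2 ratio of -1.93 (-2.15 to -1.72). Reduced levels of Cyp genes in SHs had already been reported by the paper. The 10 ZONE3 genes had log2 ratios from -4.23 to -1.08, with a median of -1.83. The part of lobule position or of the clock in the ratios of Cyp7a1 and the other outputs was not tested. Elovl3, a fatty acid elongase with a strong daily rhythm, had 422 RPM for MHs and 291 RPM for SHs, which gave a log2 ratio of -0.54 (-0.58 to -0.50). Por, the reductase that serves the cytochromes P450, had a log2 ratio of -0.38 (-0.45 to -0.32), and Insig2, which restrains cholesterol synthesis, one of -0.17 (-0.22 to -0.11). Nampt, which makes a precursor of NAD, was higher in SHs, with 28.1 and 34.99 RPM and a log2 ratio of 0.32 (0.17 to 0.47).

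The other 9 outputs had intervals that included 0. Usp2 and Wee1, direct targets of the clock, had 113 and 44 reads in MHs and 231 and 96 in SHs, with log2 ratios of -0.29 (-0.62 to 0.05) and -0.20 (-0.72 to 0.36). Alas1, the first enzyme of heme synthesis, had 422 RPM for MHs and 429 RPM for SHs, which gave a log2 ratio of 0.02 (-0.01 to 0.06). Noct, listed in the files by its older symbol Ccrn4l, encodes nocturnin and had 23.7 and 25.03 RPM, which gave a log2 ratio of 0.08 (-0.09 to 0.25). Tfrc, Ppard, Pnpla2, Lonrf3 and Tspan4 had log2 ratios between -0.11 and 0.34. The interval of Pnpla2 lay above 0 under each of the 4 other scalings, and that of Alas1 under 2 of them.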

How the data were processed

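For each library, the authors deposited whole read counts per gene symbol, without normalization. Their methods describe trimming, alignment to mm10 in CLC Genomics Workbench and RPKM values. The program and annotation behind the counts, and whether strand was used, are not given in the sources used here.

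Counts were scaled by the reads counted in each library (RPM), and log2 ratios (0.5 reads added) with Clopper-Pearson intervals were computed in Python 3.11.15 with scipy 1.17.1. Exact conditional odds ratios gave the changes of gene pairs. Lists, but not the 10 clock genes, were limited to genes that had at least 10 reads in all. With 1 library per group no test was run. Coordinates and exon lengths came from GENCODE M21 (mm10). Alternatives were edgeR 4.0.16 TMM factors, DESeq2 1.42.0 size factors, totals that leave out the 10 most-read genes, 2 added reads, 99% intervals and other read minimums. The calculation was tested on simulated counts.

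All 10 members and any gene of the clock, output, immediate-early, glucocorticoid and cold-inducible lists could be named. With 2 libraries no gene could be named for a pattern like that of a member. Members and lists were chosen with earlier results of these data known. Sphk2, Thra, Sox9, Spp1 and Epcam were named after their values were seen. Some genes of the other clock list are not reported here and were left out of its counts.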

Additional observations from a re-analysis of the deposited data

How the results depend on the processing

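No paired analysis was possible because each group had a single library. The 4 other scalings (TMM, DESeq2's size factors, a total that leaves out the 10 most-read genes and, chosen after the data were seen, the total over protein-coding genes) raised every log2 ratio by 0.0096, 0.0091, 0.0315 and 0.0232. Over 50 combinations of a clock gene and a scaling or 2 added reads, each value stayed inside its interval and on its side of 0. Since such shifts are small beside the intervals, this count could hardly have come out otherwise and is no test of robustness. The summed activators had a log2 ratio of -0.096, -0.097, -0.0742 and -0.0826 under these scalings, in that order, each with an interval that included 0. The number of clock genes at 1.5-fold or more, recounted after the data were seen, was 0 in place of 1 without the 10 most-read genes and over protein-coding genes. With 99% intervals, 1 clock gene lay above 0 in place of 3, since the intervals are wider. Among the clock-driven outputs, the number above 0 was 2, 2, 3 and 3 under the scalings in place of 1. In the group that peaks from day to dusk it was 2 in place of 1 without the 10 most-read genes and with protein-coding genes. Read minimums of 100 or none, and leaving out Cyp7a1 (chosen after the data were seen), moved no count by over 1.5 times. Depth limits the genes with few reads, such as Npas2, Per3 and Ciart.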

Other observations

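Per1 is also an early-response gene, so the lists of such genes are given here as values. Of 14 immediate-early genes, 13 had at least 10 reads. An interval above 0 was seen for 6 of them, Fos, Jun, Junb, Atf3, Nr4a1 and Klf6. One under 0 was seen for 4, Egr1, Ier2, Dusp1 and Btg2. Among all genes with at least 10 reads, the shares were 16.8% above and 15.5% under. These shares are not matched for reads, and many reads make an interval narrow, as for Jun with 30283 over both libraries. With a total that left out the 10 most-read genes, the interval of Egr1 included 0. Fos, a subunit of the AP-1 factor, had 193 RPM for MHs and 295 RPM for SHs, which gave a log2 ratio of 0.61 (95% interval 0.56 to 0.67). Btg2, an antiproliferative gene, had 198 and 147 RPM, which gave a log2 ratio of -0.43 (-0.49 to -0.37). The list's median was 0.09, beside 0.02 for all genes with at least 10 reads, and its sum was 2109 RPM for MHs and 2235 RPM for SHs. The genes did not share a direction, and their levels differed widely, down to 2.65 RPM for MHs and 4.13 RPM for SHs for Klf6. Ier3 had 4 reads in each library.

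Of 5 glucocorticoid targets, Tat, a tyrosine-degrading enzyme, was higher in SHs, with 2517 RPM for MHs and 3026 RPM for SHs. Zbtb16 and Tsc22d3 were lower, with log2 ratios of -0.36 (-0.51 to -0.22) and -0.18 (-0.29 to -0.06). The intervals of Fkbp5 and Sgk1 included 0. The list's median was -0.13, beside 0.02 for all genes with at least 10 reads. Thus 1 of the 5 lay above 0 and 2 under, beside 16.8% and 15.5% of all those genes. These shares are not matched for reads, of which Tat had 170901 over both libraries. The cold-inducible RNA-binding protein genes Cirbp and Rbm3 went in opposite directions, 1 interval above 0 and 1 under, beside the same shares. Cirbp had 103 MH reads and 332 SH reads, which gave a log2 ratio of 0.36 (0.05 to 0.70), and Rbm3 had 154 and 250 reads, which gave a log2 ratio of -0.62 (-0.92 to -0.32).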
